A study of Homo sapiens with 15 samples.

Results

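The genes described here are 8 that earlier studies reported as targets of miR-452, namely WWP1, EPB41L3, CPEB3, BMI1, CDKN1B, SOX7, LEF1 and TCF4. They were taken by name, with no threshold on a value, although earlier results of these data were known when the list was made. Of the 8, 7 had an array feature that carries their symbol alone, out of 18377 genes measured in this way. The only feature of BMI1 also carries the readthrough gene COMMD3-BMI1, so the signal of these genes cannot be told apart and it was kept out of the counts of members. Expression was measured in PC3 and DU145, prostate cancer cell lines derived from a bone and a brain metastasis. In each line 1 group was left untransfected. The other 3 groups were reverse transfected with 20 nM of mimic, whose sequence was scrambled, that of miR-224 or that of miR-452. RNA was taken after 48 h in all groups. Only 1 array was available for scrambled DU145 cells, and 2 for each of the other 7 groups. The labels do not say whether replicate arrays came from separate cultures, so p-values measure only the spread between arrays, and each line is a single cell line that stands for no other.

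A microRNA guides an Argonaute protein to messenger RNAs, mostly through base pairing of its seed, the bases from position 2 to 8, with the 3' untranslated region. Pairing can shorten the life of the message, block its translation, or both, and an array of total RNA measures only the amount of RNA. miR-452 and miR-224 lie in the same gene, GABRE, which the series title places among genes hypermethylated in prostate cancer. The question here is which of the reported targets had less RNA when miR-452 was supplied, and which did not.

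The mature sequences of both microRNAs are shown because they define what was supplied and how far the control mimic miR-224 differs from miR-452. They are RNA, 5' to 3', from RefSeq (GRCh38.p14), with the seed in capitals.
hsa-miR-452-5p: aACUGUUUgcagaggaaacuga
hsa-miR-452-3p: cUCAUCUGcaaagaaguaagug
hsa-miR-224-5p: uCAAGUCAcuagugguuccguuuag
hsa-miR-224-3p: aAAAUGGUgcccuagugacuaca
The seeds of miR-452-5p and miR-224-5p were identical at 2 of 7 positions, and no seed was shared among these 4 arms. A message that pairs with the miR-452-5p seed carries AAACAGU, and one that pairs with the miR-224-5p seed carries UGACUUG. Of 2370 mature human microRNAs in the RefSeq table, 2 others, miR-4676-3p and miR-892c-3p, had the miR-452-5p seed, and 0 others had that of miR-452-3p. The labels name the mimic as miR-452 without the arm, and the arm meant in each earlier report was not given in the sources used here. Both arms come from 1 hairpin on the minus strand at chrX:151959628-151959712, shown with the arms in capitals, and the miR-224 hairpin lies 969 bases away.
MIR452 hairpin: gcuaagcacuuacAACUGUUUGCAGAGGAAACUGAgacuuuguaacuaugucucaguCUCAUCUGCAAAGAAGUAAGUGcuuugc
Transcript sequences were not used here, so the members were not searched for these sites.

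The deposited values are log2 levels that lay between 4.49 and 14.18, and the arrays of each line were normalized separately, so levels in PC3 and DU145 are set side by side only as descriptions. Replicate arrays correlated with r between 0.992 and 0.998 over all features. Array medians were 6.94 to 7.05 in PC3 and 6.51 to 6.67 in DU145, and precision is limited by how few arrays there are. The epithelial keratin KRT8 lay between 11.22 and 12.17 over both lines and KRT18 between 10.67 and 11.36, while EPCAM, a further epithelial gene, ranged from 6.85 to 9.07 and was 1.52 ± 0.13 higher with miR-452 than with scrambled in PC3 (adjusted p = 7.39e-05). CDH1, also an epithelial gene, ranged from 6.73 to 7.30 on the PC3 arrays, around their medians. On the DU145 arrays its range was 8.38 to 8.93, above their medians. The mesenchymal gene VIM ranged from 11.93 to 12.27 on the PC3 arrays, above both keratins. Its DU145 range was 11.51 to 12.07, which overlapped that of KRT8. Of 4 measured leukocyte markers, PTPRC, CD3E and LYZ lay between 5.00 and 5.91 on all arrays. The fourth, the lysosomal gene CD68, lay between 9.42 and 10.29 and was 0.63 ± 0.079 higher with miR-452 than with scrambled in PC3 (0.000766). Among endothelial markers, PECAM1, VWF and CDH5 lay between 4.96 and 6.43 over both lines. KDR lay between 5.47 and 5.88 in DU145 but between 8.56 and 9.42 in PC3. Among fibroblast markers, DCN and LUM lay between 4.7 and 5.61, and the collagen genes COL1A1, COL1A2 and COL3A1 between 6.28 and 8.63. The prostate-specific antigen gene KLK3 lay between 5.59 and 6.62. GABRE, the host gene, lay between 5.33 and 5.90 on all arrays and did not pass in any comparison made here.

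WWP1 was lower with miR-452 than in every other group of PC3, at 54.7% of its level with the scrambled mimic, and EPB41L3 fell to 66.2%. CPEB3 went the other way and rose 1.44-fold. CDKN1B and SOX7 were lower by smaller amounts that passed against some groups only, and LEF1 and TCF4 did not pass against either control in PC3. In DU145, WWP1 and CDKN1B were lower than in untransfected cells and than with miR-224, and no member passed against the single scrambled array. A gene passed at an adjusted p under 0.05 by limma, over all 18377 genes, and all log2 differences are given ± the standard error of the fit.

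Against the scrambled mimic in PC3, 2 of 7 members fell and 1 rose, where 2.33% of all genes fell and 2.89% rose. Against untransfected PC3 cells, 4 fell and 1 rose, where 14.1% of all genes fell and 8.12% rose, and against miR-224, 4 were lower and 0 higher, where 12.5% and 5.99% were. In DU145, 0 members passed against the scrambled array, where 1.52% of all genes fell and 0.577% rose, and 2 members had an unadjusted p under 0.05. Against untransfected DU145 cells 2 fell and 1 rose, where 19.9% and 8.31% of all genes did, and against miR-224 2 were lower and 0 higher, where 3.53% and 2.38% were. The median log2 difference of the 7 members in PC3 was -0.26 against scrambled, beside 0.01 for all genes, and in DU145 it was -0.01 beside -0.02. These comparisons share the miR-452 arrays and, in part, the controls, so they are not independent of each other. WWP1 and EPB41L3 were lower than scrambled, untransfected and miR-224 cells in PC3, as were 1.61% of all genes, and 0 members met this rule in DU145, where 0.702% of genes did. Arrays of each member are drawn in the plot of values on every array.

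**Figure D1:**
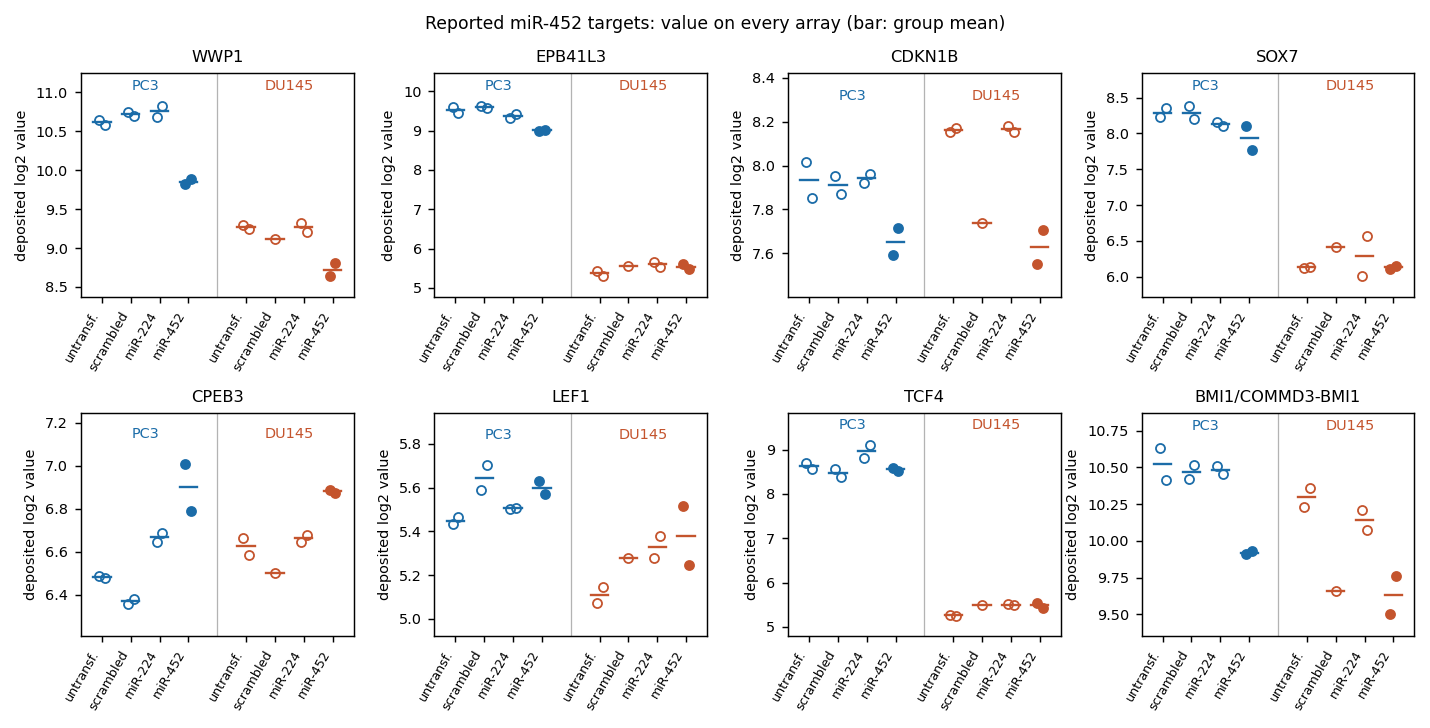
Deposited log2 values (y axis, scaled to each gene) of the 7 members and of the feature shared by BMI1 and COMMD3-BMI1, on every array of PC3 (blue) and DU145 (orange), with bars at group means and filled points for miR-452. The miR-452 points of WWP1 lie below all other points of their line in both lines, EPB41L3 is low on all DU145 arrays, and those of CPEB3 lie above all others of their line.

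WWP1 encodes a HECT-type ubiquitin ligase of the NEDD4 family, which marks proteins for degradation. In PC3 it stood at 10.65 and 10.58 on the untransfected arrays, 10.75 and 10.69 on the scrambled arrays, 10.68 and 10.82 with miR-224, and 9.82 and 9.88 with miR-452. The miR-452 arrays were the lowest 2 of the 8, and the other 6 spanned less than the gap below them. The log2 difference was -0.87 ± 0.081 against scrambled (adjusted p = 0.00012), -0.76 ± 0.081 against untransfected (0.00019) and -0.90 ± 0.081 against miR-224 (3.58e-05). These 3 calls held without each PC3 array in turn. Only 0.158% of all genes had a lower difference against scrambled in PC3.

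In DU145, WWP1 read 9.29 and 9.25 untransfected, 9.12 on the scrambled array, 9.32 and 9.21 with miR-224, and 8.64 and 8.81 with miR-452. The miR-452 arrays were again below all others of the line. The difference was -0.55 ± 0.094 against untransfected (adjusted p = 0.00529) and -0.54 ± 0.094 against miR-224 (0.0104). Against the single scrambled array it was -0.40 ± 0.11, which did not pass (0.114), with a 95% interval from -0.66 to -0.14. Without untransfected array b the call against untransfected cells was lost (0.0564), and without miR-224 a or c that against miR-224 was lost (0.0824 and 0.0521). Without miR-452 c WWP1 passed against the scrambled array (0.036), as it did when all 15 arrays were fitted together (0.0378). With the array letter as a replicate block the call of WWP1 against untransfected DU145 cells was lost. The log2 difference against scrambled was 0.47 ± 0.13 lower in PC3 than in DU145 when the lines were tested against each other, which did not pass (0.152).

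EPB41L3 encodes a scaffold protein, also known as DAL-1, that ties membrane proteins to the cytoskeleton and is known as a tumour suppressor. In PC3 it read 9.59 and 9.44 untransfected, 9.63 and 9.57 scrambled, 9.32 and 9.41 with miR-224, and 8.99 and 9.01 with miR-452. The miR-452 arrays were below all others, and the miR-224 arrays were below both control groups without passing against scrambled (-0.23 ± 0.082, adjusted p = 0.0813). With miR-452 it fell by 0.60 ± 0.082 against scrambled (adjusted p = 0.00152) and by 0.51 ± 0.082 against untransfected (0.00219). Against miR-224 it was lower by 0.36 ± 0.082 (-0.36, adjusted p = 0.00975), a call lost without miR-224 b (0.104) or without miR-452 b or c (0.0505 and 0.0524). The calls against both control groups held without each PC3 array in turn.

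In DU145, EPB41L3 lay between 5.30 and 5.66 on all 7 arrays, near the low end of the deposited values. The difference of miR-452 against scrambled was -0.01 ± 0.12, with a 95% interval from -0.27 to 0.25, and against untransfected it was 0.17 ± 0.095 (adjusted p = 0.184). The change against untransfected cells differed between lines, by -0.68 ± 0.12 (PC3 minus DU145, adjusted p = 0.00731), and EPB41L3 was the only 1 of the 7 members to pass that test, where 2.88% of all genes did. The corresponding difference against scrambled was -0.59 ± 0.14 and did not pass (0.0747). There 0 members passed by limma and 2 had an unadjusted p under 0.05, beside 0.62% of all genes that passed. The first call was lost without DU145 untransfected c (0.0567), and the second passed without DU145 miR-452 c (0.0446). After quantile normalization the 2 tests changed places, at adjusted p = 0.0549 against untransfected and 0.0318 against scrambled.

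CDKN1B encodes p27, an inhibitor of cyclin-dependent kinases that holds cells in G1. In PC3 it read 8.01 and 7.85 untransfected, 7.95 and 7.87 scrambled, 7.92 and 7.96 with miR-224, and 7.59 and 7.72 with miR-452. The miR-452 arrays were the lowest 2, by a gap smaller than that of WWP1 or EPB41L3. The difference was -0.28 ± 0.086 against untransfected (adjusted p = 0.04) and -0.29 ± 0.086 against miR-224 (0.038), and -0.26 ± 0.086 against scrambled, which did not pass (0.125). The call against untransfected was lost without untransfected b (0.264) or without any 1 of the miR-452 and miR-224 arrays (0.0576 to 0.198). That against miR-224 was lost without any 1 of those same 4 arrays (0.0669 to 0.205). After quantile normalization neither passed, at -0.17 (0.178) and -0.23 (0.0798).

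In DU145, CDKN1B read 8.15 and 8.17 untransfected, 7.74 on the scrambled array, 8.18 and 8.15 with miR-224, and 7.55 and 7.71 with miR-452. The scrambled array thus lay with the miR-452 arrays and apart from the other 4. With miR-452 it was lower by 0.53 ± 0.089 than in untransfected cells (-0.53, adjusted p = 0.0048). It stood at -0.54 ± 0.089 against miR-224 (0.00831) and at -0.11 ± 0.11 against scrambled (0.765). With the array letter as a replicate block the call of CDKN1B with miR-452 against untransfected cells was lost. The scrambled array itself was lower than untransfected cells, by -0.43 ± 0.11 (0.0378), the only member to pass there, where 9.22% of all genes fell and 2.6% rose. That last call was lost without any 1 of the untransfected and miR-224 arrays (0.0576 to 0.179), and CDKN1B stood at -0.25 there after quantile normalization (0.0915). The fall against untransfected cells was lost without untransfected c (0.051), and the difference from miR-224 without miR-224 a or c (0.0635 and 0.0657).

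BMI1 encodes a core subunit of Polycomb repressive complex 1 and is known as a repressor of the CDKN2A locus. The feature that carries BMI1 and COMMD3-BMI1 read 10.63 and 10.42 untransfected, 10.42 and 10.52 scrambled, 10.51 and 10.46 with miR-224, and 9.91 and 9.93 with miR-452 in PC3. The miR-452 arrays lay close together, below all the others. It was tested among all 28869 features, with a difference of -0.55 ± 0.085 against scrambled (adjusted p = 0.0241), -0.61 ± 0.085 against untransfected (0.00979) and -0.56 ± 0.085 against miR-224 (0.00763). The call against scrambled was lost without any 1 of the scrambled, miR-224 and miR-452 arrays (0.0578 to 0.138). The call against untransfected was lost without untransfected b (0.0646) or either miR-452 array (0.05 and 0.0585), and that against miR-224 without miR-224 b (0.0532) or miR-452 c (0.0532).

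In DU145 the same feature read 10.23 and 10.36 untransfected, 9.66 on the scrambled array, 10.21 and 10.07 with miR-224, and 9.50 and 9.76 with miR-452. As for CDKN1B, the scrambled array lay with the miR-452 arrays, here between them. The feature fell by 0.66 ± 0.11 against untransfected (-0.66, adjusted p = 0.0221), stood at -0.03 ± 0.13 against scrambled (0.978) and at -0.51 ± 0.11 against miR-224 (0.0877). The scrambled array stood at -0.64 ± 0.13 against untransfected cells (0.0626). The call against untransfected was lost without either untransfected array (0.159 and 0.161) or miR-452 a (0.054). The difference from miR-224 passed without miR-452 c (0.0378) and after quantile normalization (0.0373). In 1 fit of all 15 arrays the differences of miR-452 from miR-224 and of scrambled from untransfected both passed (0.0151 and 0.0139).

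SOX7, LEF1 and TCF4 belong to reports on Wnt signalling. SOX7 encodes a SOXF transcription factor known to hold back beta-catenin, and LEF1 encodes a partner through which beta-catenin acts on DNA. TCF4 is the official symbol of an E protein, a basic helix-loop-helix factor, while the beta-catenin partner long called TCF-4 has the symbol TCF7L2. RefSeq lists both TCF4 and TCF-4 among the older names of TCF7L2, so TCF7L2 is given beside TCF4, although it is not on the list of 8.

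In PC3, SOX7 read 8.23 and 8.35 untransfected, 8.38 and 8.20 scrambled, 8.15 and 8.10 with miR-224, and 8.10 and 7.77 with miR-452. Array c with miR-452 was the lowest of the 8, and array b lay just under the miR-224 arrays. The difference was -0.35 ± 0.11 against untransfected (adjusted p = 0.0416), -0.35 ± 0.11 against scrambled (0.0983) and -0.19 ± 0.11 against miR-224 (0.27). The first call was lost without either untransfected array (0.133 and 0.158), either miR-224 array (0.0517) or miR-452 c (0.287), where the difference was -0.19. It was also lost after quantile normalization (-0.22, 0.148) or in 1 fit of all 15 arrays (0.096). Without miR-452 b it passed against scrambled (-0.52, 0.036). In DU145, SOX7 lay between 6.01 and 6.57, and the miR-452 arrays (6.10 and 6.15) overlapped the untransfected arrays (6.13 and 6.14). The DU145 difference against scrambled was -0.29 ± 0.19 (0.557) and against untransfected -0.00 ± 0.15 (0.984).

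LEF1 lay between 5.43 and 5.70 on the PC3 arrays and between 5.07 and 5.51 in DU145, near the low end of the scale in both lines. With miR-452 it read 5.63 and 5.57 in PC3, inside the range of the other arrays, and 5.51 and 5.24 in DU145. The difference against scrambled was -0.05 ± 0.078 in PC3, with a 95% interval from -0.22 to 0.12, and 0.10 ± 0.13 in DU145, from -0.19 to 0.39. Against untransfected cells it was 0.15 ± 0.078 in PC3 (adjusted p = 0.173) and 0.27 ± 0.11 in DU145 (0.0805). The DU145 value passed without miR-452 c (0.00876) and when all 15 arrays were fitted together (0.0331).

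TCF4 read 8.70 and 8.57 untransfected, 8.55 and 8.39 scrambled, 8.82 and 9.10 with miR-224, and 8.59 and 8.52 with miR-452 in PC3. The miR-452 arrays overlapped both control groups, and the miR-224 arrays were above all others. The difference of miR-452 was 0.08 ± 0.10 against scrambled (adjusted p = 0.773, 95% interval -0.14 to 0.31) and -0.08 ± 0.10 against untransfected (0.569). It was -0.41 ± 0.10 against miR-224 (0.0176), where miR-224 itself had raised TCF4 over scrambled by 0.49 ± 0.10 (0.00762). With miR-224 2 members, TCF4 and CPEB3, rose over scrambled in PC3 and 0 fell, where 12.1% of all genes rose and 4.65% fell. The rise of TCF4 was lost without scrambled c (0.0595) or miR-224 b (0.101), and its difference between the mimics without miR-224 b (0.201) or miR-452 c (0.111). In DU145, TCF4 lay between 5.25 and 5.53 on all arrays, and its difference of miR-452 against scrambled was -0.00 ± 0.10, with a 95% interval from -0.23 to 0.23. Against untransfected DU145 cells it was 0.23 ± 0.084 (0.0689), which passed without miR-452 c (0.0225).

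TCF7L2 read 9.23 and 9.21 untransfected, 8.72 and 8.60 scrambled, 9.43 and 9.46 with miR-224, and 8.90 and 8.64 with miR-452 in PC3. The scrambled and miR-452 arrays overlapped and lay below the untransfected and miR-224 arrays. The difference of miR-452 was 0.11 ± 0.094 against scrambled (adjusted p = 0.624) and -0.45 ± 0.094 against untransfected (0.00776), while the scrambled mimic stood at -0.56 ± 0.094 against untransfected (0.00561). In DU145 the scrambled array read 8.69 and the miR-452 arrays 8.85 and 8.93, with the other 4 between 9.06 and 9.12. Those differences were 0.20 ± 0.10 against scrambled (0.416) and -0.21 ± 0.084 against untransfected (0.081). In PC3 the fall of TCF7L2 against untransfected was lost without untransfected b (0.0749) or miR-452 c (0.0709).

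CPEB3 encodes a protein that binds elements in the 3' untranslated region of messenger RNAs and controls their translation. It was the 1 member that rose. In PC3 it read 6.49 and 6.48 untransfected, 6.36 and 6.38 scrambled, 6.65 and 6.69 with miR-224, and 7.01 and 6.79 with miR-452. The miR-452 arrays were above all others and the miR-224 arrays were next. The difference was 0.53 ± 0.086 against scrambled (adjusted p = 0.00402), 0.42 ± 0.086 against untransfected (0.00724) and 0.23 ± 0.086 against miR-224 (0.0877). The call against scrambled held without each array in turn, with a largest adjusted p of 0.0466 over those and the other settings. That against untransfected was lost without untransfected b (0.0637) or miR-452 b (0.0604). The difference between the mimics passed without miR-452 c (0.0499). With miR-224 CPEB3 was 0.30 ± 0.086 above scrambled (0.0348), a call lost without any 1 of the untransfected, scrambled and miR-224 arrays (0.0503 to 0.21).

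In DU145, CPEB3 read 6.66 and 6.59 untransfected, 6.50 on the scrambled array, 6.65 and 6.68 with miR-224, and 6.89 and 6.87 with miR-452. The miR-452 arrays were again the highest 2, and the share of all genes with this order was not counted in either line. The difference was 0.25 ± 0.083 against untransfected (adjusted p = 0.0469), 0.38 ± 0.10 against scrambled (0.0916) and 0.22 ± 0.083 against miR-224 (0.192). The call against untransfected was lost without either untransfected array (0.176 and 0.301), either miR-224 array (0.0729) or miR-452 a (0.0898). It was also lost with trend and robust moderation (0.0922), quantile normalization (0.0568), weakly expressed genes left out (0.0535) or the array letter as a replicate block. The difference of the rise between lines, PC3 minus DU145, was 0.15 ± 0.13 against scrambled and did not pass (0.809).

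**Figure D2:**
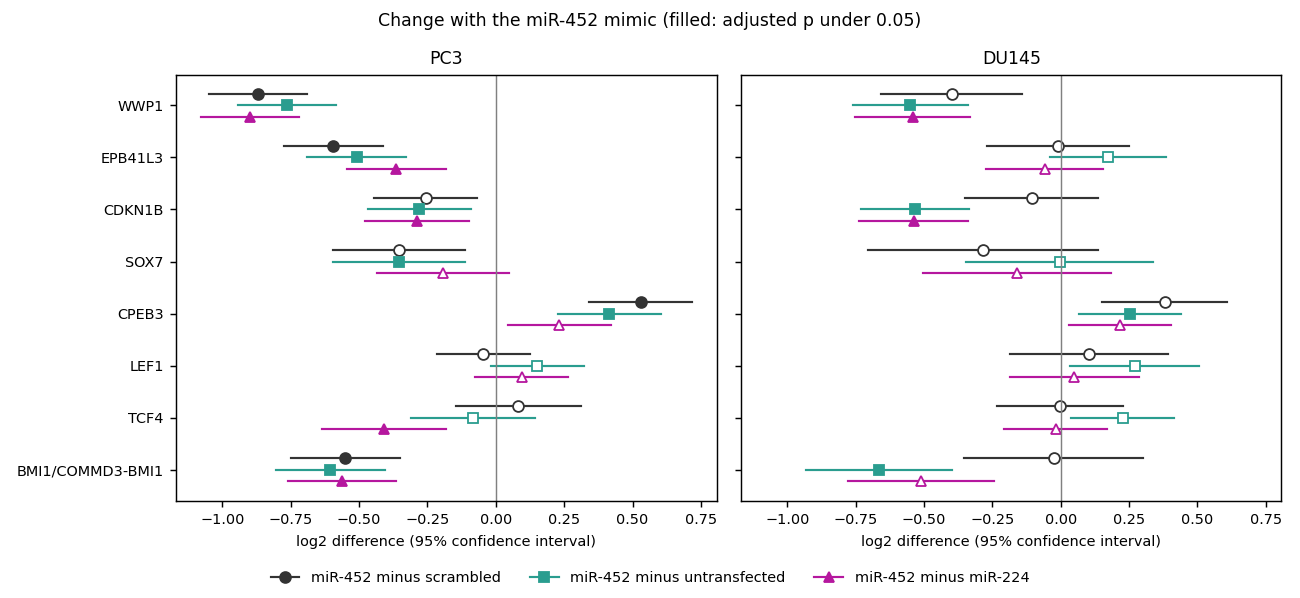
Log2 difference (x axis) of the miR-452 mimic from scrambled, untransfected and miR-224 arrays in PC3 (left) and DU145 (right) for each member and for the BMI1/COMMD3-BMI1 feature (y axis), with 95% confidence intervals from limma and filled symbols for adjusted p under 0.05. WWP1 is below 0 in all 6 comparisons and CPEB3 above 0, while EPB41L3 is below 0 in PC3 and close to 0 in DU145 against scrambled.

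Both miR-452 arrays lay below all other arrays of the line for WWP1, EPB41L3, CDKN1B and SOX7 in PC3, 4 of 7 members, where 10.3% of all genes did. In DU145 this held for WWP1 and CDKN1B, 2 of 7, where 12.3% of genes did. Margins were small for SOX7 in PC3 (8.0998 for miR-452 b, 8.1032 for miR-224 b). They were also small for CDKN1B in DU145 (7.71 for miR-452 c, 7.74 for the scrambled array). In PC3 both miR-224 arrays lay below all control arrays for EPB41L3 and SOX7, and not for WWP1 and CDKN1B. The share of all genes with this order was not counted, so it only describes where the arrays lay. The difference of miR-224 against scrambled was 0.03 ± 0.081 for WWP1 and 0.03 ± 0.086 for CDKN1B, -0.16 ± 0.11 for SOX7 and, as given above, -0.23 ± 0.082 for EPB41L3, and 0 of these 4 passed. In DU145, 0 members passed for miR-224 against scrambled by limma, where 1.94% of all genes did, and 1 had an unadjusted p under 0.05. That was CDKN1B, at 0.43 ± 0.11 (adjusted p = 0.0927), which passed without either miR-452 array (0.0266). Between the control groups in PC3, 0 members passed by limma, where 14.2% of all genes did, and 1 had an unadjusted p under 0.05. That was LEF1, at 0.20 ± 0.078 for scrambled against untransfected (adjusted p = 0.104).

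**Figure D3:**
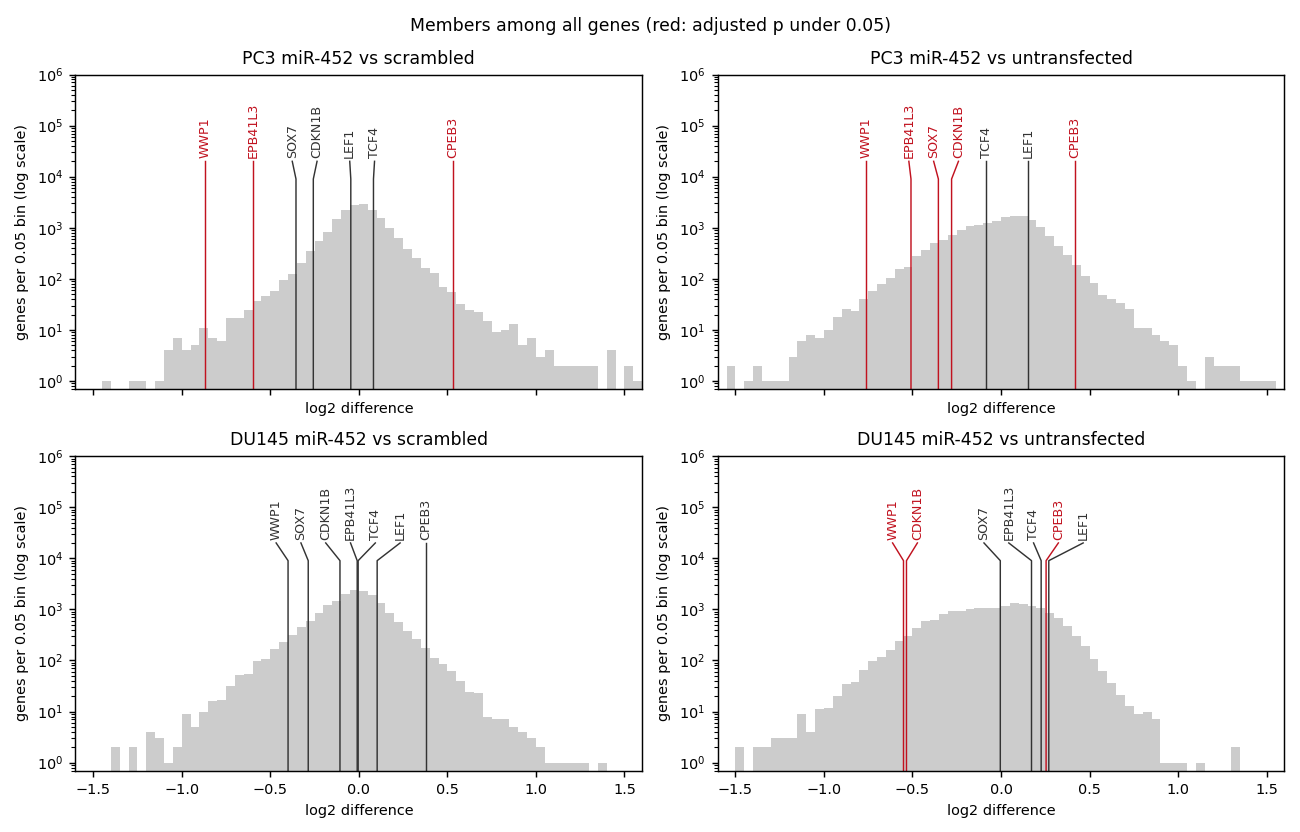
Number of genes on a log scale (y axis) by log2 difference of miR-452 from the control named above each panel (x axis, bins of 0.05), with lines at the 7 members, red where the adjusted p is under 0.05. WWP1 and EPB41L3 lie in the lower tail in PC3 against scrambled, and the spread of all genes against untransfected cells is wider than against scrambled in both lines.

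On the same PC3 arrays 8 interferon response genes (MX1, OAS1, OAS2, IFIT1, IFI44, IFI44L, IFITM1 and SAMD9) were higher than with scrambled, at a median log2 difference of 1.44, where 2.89% of all genes rose. They were picked with earlier results of these data in view, so their count and median are a description fixed by that choice. In DU145 their median against scrambled was 0.12, and 1 of the 8 rose, where 0.577% of all genes did. That was SAMD9, at 0.71 ± 0.13 against the single scrambled array. Against untransfected DU145 cells SAMD9 was lower, at -0.33 ± 0.11, so its direction depended on the control. The part of these 8 genes in the changes of the members in PC3 was not tested.

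Relatives and partners of each member were described from lists chosen with earlier results of these data known. Their counts against scrambled stand beside 2.33% of all genes that fell and 2.89% that rose in PC3, and 1.52% and 0.577% in DU145. Among 12 measured NEDD4-family ligases, adaptors and substrates, WWP1 was the 1 that fell against scrambled in PC3 and the ligase ITCH rose (0.41 ± 0.089), while ITCH stood at -0.10 against untransfected cells. The median of these 12 was -0.02 beside 0.01 for all genes, and 0 passed in DU145, with SMURF1, a ligase for SMAD proteins, at -0.16 there and -0.54 ± 0.11 against untransfected. Of 9 measured genes of the EPB41 family and partners, EPB41L3 was the 1 that passed against scrambled in PC3, and 0 passed in DU145. Against untransfected cells 4 of the 9 were lower in each line, where 14.1% of all genes fell in PC3 and 19.9% in DU145. The scrambled mimic itself lowered 3 of the 9 in PC3 and 4 in DU145 against untransfected cells, with EPB41L2 at -0.61 and -0.71. In that comparison 14.2% of all genes passed in either direction in PC3, and 9.22% fell in DU145. Among the genes lower with miR-452 than in untransfected cells was EPB41L1, at -0.50 ± 0.097 in PC3 and -0.68 ± 0.084 in DU145. Against scrambled EPB41L1 stood at -0.28 ± 0.097 in PC3 and -0.27 ± 0.10 in DU145 and did not pass in either line. The scrambled mimic itself stood at -0.22 ± 0.097 and -0.41 ± 0.10 for EPB41L1 against untransfected cells. Of 7 measured CPEB and partner genes, CPEB3 was the 1 that passed against scrambled in PC3. Its relatives CPEB2 and CPEB4 stood at -0.26 ± 0.080 and 0.11 ± 0.11 there, and EGFR, a receptor reported to be controlled through CPEB3, at 0.15 ± 0.095. The ITCH call was lost without any 1 of the scrambled and miR-452 arrays (0.0653 to 0.117), and those of SMURF1 and of EPB41L1 in PC3 without untransfected b (0.0572 and 0.067), SMURF1 also without c (0.0719) and EPB41L1 without miR-452 c (0.0517). Against the mean of both control groups ITCH stood at 0.16 and did not pass (0.216).

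Of 15 measured Polycomb repressive complex 1 genes and CDKN2A, 2 fell and 1 rose against scrambled in PC3, and 2 fell and 0 rose in DU145, with medians of -0.14 and -0.02. PCGF3, a relative of BMI1 that takes its place in variant complexes, fell in both lines, by 0.62 ± 0.10 in PC3 (-0.62, adjusted p = 0.00502) and 0.62 ± 0.11 in DU145 (-0.62, 0.0239). It was also lower than in untransfected cells, at -0.80 ± 0.10 and -0.87 ± 0.087. RYBP, a subunit of those variant complexes, fell in PC3 against scrambled (-0.45 ± 0.082) and untransfected (-0.60 ± 0.082). PCGF5, a further BMI1 relative, rose over scrambled in PC3 (0.74 ± 0.074) and did not pass against untransfected (0.20 ± 0.074). CDKN2A, which encodes p16 and ARF, was lower in DU145 against scrambled (-0.56 ± 0.10) and untransfected (-0.30 ± 0.082). Against scrambled, PCGF3 lost its call in PC3 without miR-452 b (0.0505) and in DU145 without either untransfected array (0.0673), and CDKN2A likewise in DU145 (0.0844). The call of CDKN2A against untransfected was lost without either untransfected array (0.174 and 0.16) or miR-452 a (0.0556), and RYBP lost its PC3 call against scrambled without scrambled b (0.0606) or miR-452 b or c (0.0515 and 0.0613). After quantile normalization CDKN2A stood at -0.10 against untransfected (0.353).

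Among 17 measured CDK inhibitors, their kinases and cyclins and the ligase that degrades p27, 0 fell and 3 rose against scrambled in PC3, and 1 fell and 1 rose in DU145, with medians of -0.07 and -0.02. CDK6, a kinase of G1, rose in both lines, by 1.00 ± 0.095 in PC3 (adjusted p = 0.000128) and 0.83 ± 0.12 in DU145 (0.0143). It was also higher than in untransfected cells, by 0.61 ± 0.095 and 0.38 ± 0.097. CCNE2, a cyclin of the G1/S step, rose over scrambled in PC3 (0.36 ± 0.083) and was lower than in untransfected cells (-0.36 ± 0.083), so its direction depended on the control. CUL1, a scaffold of the p27 ligase, stood at 0.33 ± 0.075 against scrambled and 0.09 ± 0.075 against untransfected, and SKP2, its substrate receptor, at 0.21 ± 0.085 against scrambled without passing. The CDK6 call against untransfected DU145 cells was lost without either untransfected array (0.131 and 0.123). The call of CUL1 was lost without any 1 of the scrambled and miR-452 arrays (0.0733 to 0.173), that of CCNE2 against scrambled without scrambled b or either miR-452 array (0.079 to 0.174), and against untransfected without untransfected b (0.118) or miR-452 b (0.0722). Against the mean of both control groups CCNE2 stood at 0.00 (0.994) and CUL1 at 0.21 (0.0593).

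Of 14 measured TCF/LEF, beta-catenin and co-regulator genes, 0 fell and 1 rose against scrambled in PC3, and 0 passed in DU145, with medians of 0.05 in both lines. The 1 was TCF7L1, a TCF factor known mainly as a repressor, at 0.50 ± 0.085 against scrambled and -0.00 ± 0.085 against untransfected. Of 14 measured Wnt feedback targets, which include LEF1, 0 passed against scrambled in either line, with medians of -0.04 in PC3 and 0.03 in DU145. The receptor gene LGR5 was lower than in untransfected PC3 cells (-0.59 ± 0.11) and AXIN2, a brake of the pathway, was higher than in untransfected DU145 cells (0.35 ± 0.092). Of 7 E protein and ID genes, which include TCF4, 0 passed against scrambled in either line, and in DU145 ID2, ID1 and TCF3 were lower than in untransfected cells, at -0.60 ± 0.12, -0.30 ± 0.091 and -0.32 ± 0.082. The other SOXF genes, SOX17 and SOX18, stood at 0.07 and -0.19 in PC3. The calls against untransfected cells in this paragraph were lost without untransfected b for LGR5 (0.0634), AXIN2 (0.146), ID1 (0.197) and TCF3 (0.155), and without untransfected c for AXIN2 (0.136), ID1 (0.182), TCF3 (0.156) and ID2 (0.0724). Without miR-452 a those of AXIN2 (0.0779) and ID1 (0.118) were lost, and ID1 also without either miR-224 array (0.0527). After quantile normalization AXIN2 (0.0549), ID2 (0.0566), ID1 (0.292) and TCF3 (0.56) did not pass, and TCF7L1 stood at 0.25 against the mean of both control groups (0.0528).

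Other genes named from these lists passed only against untransfected cells in the line given, and not against scrambled. Nearly all of them were lower. Of all genes, 14.1% were lower and 8.12% higher in that comparison in PC3, and 19.9% and 8.31% in DU145. The scrambled mimic itself lowered or raised some of the named genes against untransfected cells, as given above for EPB41L2. In PC3 it stood at -0.48 ± 0.11 for CPEB4, 0.53 ± 0.080 for CPEB2 and 0.43 ± 0.097 for ID2. Against scrambled PC3 cells miR-452 stood at 0.11, -0.26 and -0.10 for these genes in the same order. The scrambled mimic did not lower TOB1 in PC3 (0.00 ± 0.076). In DU145 the single scrambled array stood at -0.41 ± 0.11 for TOB1, and miR-452 at -0.16 ± 0.11 against that array. The names were limited per list and line, so these genes may not be all that passed. In PC3 they were the ligase NEDD4L (-0.28), the ligase adaptor NDFIP1 (-0.29), EPB41L2 (-0.34), EPB41L5 (-0.33), the Polycomb subunit CBX6 (-0.47), the co-repressor TLE5 (-0.33) and TOB1 (-0.26), an antiproliferative partner of CPEB3. CPEB4 was also lower there (-0.37), and CPEB2 (0.27) and ID2 (0.33) were higher. In DU145 they were NDFIP2 (-0.38), EPB41L2 (-0.52), EPB41L4A (-0.71), EPB41 (-0.41), CPEB2 (-0.35), TOB1 (-0.57), RYBP (-0.61), the Polycomb subunit PHC1 (-0.31), the co-repressors TLE2 (-0.52), TLE3 (-0.34) and TLE5 (-0.60), and PYGO2 (-0.39), a co-activator of beta-catenin. Every one of these calls was lost without untransfected b (adjusted p 0.0539 for EPB41L4A to 0.235 for NDFIP1), except that of TOB1 in DU145, which held without each array in turn.

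**Figure D4:**
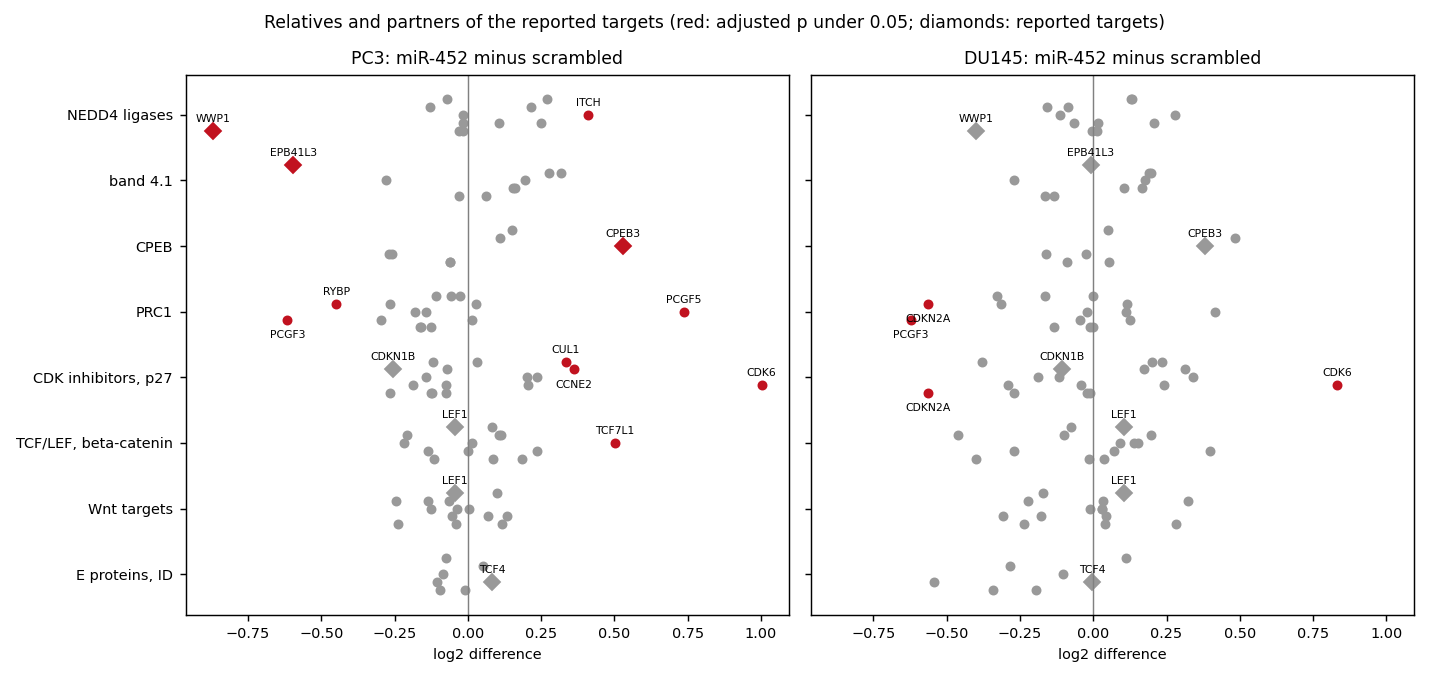
Log2 difference of miR-452 from scrambled (x axis) for the measured genes of 8 lists of relatives and partners (y axis, points spread for clarity) in PC3 and DU145, with diamonds for reported targets and red for adjusted p under 0.05. WWP1 and EPB41L3 stand below their relatives in PC3, and CDK6 is the highest point in both lines.

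Genes whose profile over the 15 arrays was most like that of a member, after each line was centred on its own mean, were named for the 3 members that passed against scrambled in PC3. For WWP1 they were ARL1 and ARF4, small GTPases of the Golgi, with r of 0.978 and 0.97. Both fell with miR-452 against scrambled, by 1.00 and 1.07 in PC3 and by 0.74 and 0.72 in DU145. For EPB41L3 they were TMEM47 (r of 0.924) and MMP16, a membrane matrix metalloprotease (0.91), at -0.62 and -0.50 in PC3 and -0.00 and -0.00 in DU145. For CPEB3 they were RASSF6 (r of 0.894) and CARD6 (0.881), at 0.24 and 0.33 in PC3 and 0.08 and 0.23 in DU145, of which CARD6 passed in PC3 (adjusted p = 0.0343), RASSF6 did not (0.113), and neither passed in DU145. That call of CARD6 was lost without any 1 of the scrambled, miR-224 and miR-452 arrays (0.0593 to 0.159). These correlations come from arrays in few groups and are a description of likeness only. The genes were picked for likeness over these same arrays, so their changes largely follow from that choice and are no separate result. Against scrambled, the DU145 call of ARL1 was lost without either untransfected array (0.0656), and the PC3 calls of TMEM47 without scrambled b (0.0615) or miR-452 c (0.0778) and of MMP16 without scrambled c (0.0687) or miR-452 b (0.101).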

How the data were processed

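The 15 samples were hybridised to Affymetrix Human Gene arrays. The deposited values are log2 levels after RMA16 normalization in GeneSpring GX, done by the authors for PC3 and DU145 apart, per the series' design text. The authors left out 1 DU145 scrambled array. RMA16 is understood to add 16 before taking the logarithm, though no source used here says so, and this would shrink differences of weakly expressed genes. Genome build and probe set definition are not given in the sources used here.

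Of 28869 features, 19310 carried 1 symbol, 1752 several and 7807 none. Symbols were updated through RefSeq (19279 matched), and features of 1 symbol were averaged, giving 18377 genes with no filter. Group means were fitted in each line with limma 3.58.1 in R 4.3.3, leaving 4 residual degrees of freedom for PC3 and 3 for DU145. The lone scrambled array was assumed to vary like the other groups. Differences between lines came from 1 fit of 15 arrays. Tests were two-sided, with Benjamini-Hochberg adjustment over all genes, or over all features for BMI1/COMMD3-BMI1, and a threshold of 0.05. The fit was tested on simulated data.

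The members and lists were chosen with earlier results of these data known. The rule for names took all members and TCF7L2, up to 4 list genes per list and line that passed against a control, and the 2 most like genes per member called in PC3. Alternatives were the mean of both controls, 1 joint fit, genes under percentile 20 left out, the highest feature per gene, quantile normalization, trend and robust moderation, array letters as a replicate block, and leaving out single arrays.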

Additional observations from a re-analysis of the deposited data

Results flagged for a closer look

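The log2 change of EPB41L3 with miR-452 against untransfected cells was 0.68 lower in PC3 than in DU145 (-0.68, limma, adjusted p = 0.00731). In DU145 all arrays lay between 5.30 and 5.66, near the low end of the scale, where a fall could hardly be measured, so the test does not separate a different response from a low level. Against scrambled the line difference was -0.59 and did not pass (0.0747). The call against untransfected ended after quantile normalization (0.0549), with the array letter as a replicate block (0.168) and without DU145 untransfected c (0.0567), and EPB41L3 was not among the genes tested once weakly expressed genes were left out.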

How the results depend on the processing

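Counts are of the 7 members that passed by limma. With the mean of both control groups as control, 5 passed in PC3 and 3 in DU145, in place of 3 and 0 against scrambled. In 1 fit of all 15 arrays, 2 passed in DU145 against scrambled and 1 for miR-224 against scrambled. Without genes under percentile 20, 0 passed for the line difference against untransfected, since EPB41L3 was left out there. Quantile normalization gave 3 in place of 5 in PC3 against untransfected. In DU145 it gave 1 against scrambled, 0 for scrambled against untransfected and 1 for miR-224 against scrambled. For the line difference it gave 2 against scrambled and 0 against untransfected. The cause was not tested in these cases.

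Arrays of the same letter showed no steady likeness: deviations from group means correlated from -0.15 to 0.27 in PC3, and at 0.03, 0.05 and -0.31 in DU145. With at most 2 arrays per group these correlations cannot decide whether the letters pair the arrays. With the letter as a replicate block, 2 of 7 passed in PC3 against miR-224 and 1 for miR-224 against scrambled. It left 0 in DU145 against untransfected, for DU145 scrambled against untransfected and for the line difference against untransfected. WWP1, CDKN1B and CPEB3 thus lost their calls against untransfected DU145 cells. With that block and the 2 letters of miR-452 in DU145 crossed, chosen after seeing the data, 0 passed in DU145 for scrambled against untransfected.

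Leaving out single arrays gave, in PC3, 3 to 4 against scrambled, 2 to 5 against untransfected, 1 to 4 against miR-224, 0 for scrambled against untransfected and 0 to 2 for miR-224 against scrambled. In DU145 it gave 0 to 1, 1 to 5, 0 to 2, 0 to 1 and 0 to 1 in the same order, and 0 to 1 for each line difference. Leaving out the only scrambled DU145 array leaves no comparison with it. Over single genes and settings, 3383 values stayed on their side of the threshold, 295 lost a call, 68 gained one and 0 changed the sign of a called value. Weak signals near the low end of the scale limit EPB41L3 and TCF4 in DU145 and LEF1 in both lines. CPEB3 was also weak in PC3, at 6.36 to 6.49 on the control arrays, below the array medians of 6.94 to 7.05. SOX7 in DU145 lay below the median of each array.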
